A study of Mus musculus with 18 samples.

Results

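On day 14, RNA of mouse bone marrow cells with a BRD9-NUTM1 fusion (BN1) was set against RNA of control cells without a fusion. The comparison used 6 of the 18 libraries of the series, 3 of BN1 and 3 of control, and all genes of the deposited table. Both groups were iLS cells of C57BL/6 background that were sorted as CD45.2-positive. The labels give the genotypes as CD45.2(+) BRD9-NUTM1 for BN1 and CD45.2(+) for control. CD45.2 is a form of the leukocyte surface protein CD45, whose gene is Ptprc. The labels name no other allele or agent, and in the sources used here it is not stated how the fusion was introduced, which species its NUTM1 part came from, or whether the libraries came from separate cultures or animals. P-values therefore measure the spread between these libraries, which may be technical. One more group, AFFN1 cells with an AFF1-NUTM1 fusion, was sampled in 3 libraries on the same day.

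NUTM1 is normally active in the testis. Its protein recruits the histone acetyltransferase p300, and in leukemia it is found joined to other proteins in B-cell precursors, mainly of infants. BRD9 is a bromodomain subunit of a SWI/SNF chromatin remodelling complex. B-cell precursors pass from the pro-B stage, where Rag1 and Rag2 cut the immunoglobulin heavy chain locus, to the pre-B stage, where the pre-B receptor drives division and the light chain loci are then cut. Interleukin 7 signals through Stat5 during these stages and sustains survival and growth, while Myc raises glycolysis, nucleotide supply and ribosome production in dividing precursors.

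Each library description holds a code. Code 0716 marks the libraries numbered 1, 0730 those numbered 2 and 0802 those numbered 3, and values below are given in that order. Libraries with the same code deviated from their group means together, so the code was a block in the fit. The day 14 libraries had 17.8 to 18.4 times 1e6 counts each. Levels are given in CPM, counts per 1e6 counts after TMM scaling. Calls were made below an adjusted p of 0.05 in edgeR's quasi-likelihood test, with Benjamini-Hochberg adjustment over all 11657 tested genes, and all adjusted p-values here come from edgeR. Fold changes are BN1 over control on the log2 scale, and a fold given as a plain number is the fitted one. Control 1 stood apart: its interferon-response genes summed to 1452 CPM, against 168 to 177 CPM in the other control libraries, and the AFFN1 library of the same code stood apart likewise.

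The cells of both groups carried the defining transcripts of B-cell precursors. Cd79a, a signalling chain of the B-cell receptor, was at 1991, 2413 and 2531 CPM in BN1, against 1455, 1801 and 2683 CPM in control. Pax5, the commitment factor of the B lineage, was at 1018, 1108 and 933 CPM in BN1, against 768, 902 and 686 CPM in control. Igll1, the surrogate light chain of the pre-B receptor, was at 1482, 1657 and 1443 CPM in BN1, against 1251, 1399.6 and 1302 CPM in control, and neither Pax5 nor Igll1 was called. Ptprc was present in every library, at 244, 254 and 243 CPM in BN1, against 168, 262 and 185 CPM in control. The T and NK cell markers Cd3e, Cd8a and Ncr1 had 0 counts in all 6 libraries, as did the platelet marker Pf4. The T-cell receptor gamma segment Tcrg-C2 was present, at 97.9, 15.2 and 122 CPM in BN1, against 664, 194 and 358 CPM in control. Among the myeloid markers, Csf1r and Mpo were too low to be tested. Csf1r was at 0.861, 0 and 0.38 CPM in BN1, against 0.216, 0.162 and 0.478 CPM in control. Mpo had 2 reads in BN1 and 1 in control. The 20 genes of the myeloid list summed to 168, 98.8 and 167 CPM in BN1, against 329, 85.4 and 174 CPM in control. Itgam and Lyz2 were present at low levels. Itgam was at 7.16, 12.1 and 10.6 CPM in BN1, against 1.62, 6.36 and 5.44 CPM in control, and Lyz2 at 52.1, 22.4 and 36.5 CPM in BN1, against 13.0, 16.5 and 27.0 CPM in control, and neither was called. The stromal collagen gene Col1a1 was at 5.55, 3.41 and 5.43 CPM in BN1, against 3.02, 5.28 and 7.29 CPM in control.

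The transcripts of the fusion's parent genes did not mark the groups. Mouse Nutm1 was too low to be tested, at 0, 0 and 0 CPM in BN1, against 0, 0.0539 and 0.0598 CPM in control. Brd9 was at 47.6, 44.8 and 43.6 CPM in BN1, against 34.9, 42.1 and 47.0 CPM in control (log2 fold change 0.14, SE 0.14, adjusted p = 0.536). Any reads of the BRD9 part of the fusion cannot be told apart from those of Brd9 in a table of mouse genes. Reads of a mouse NUTM1 part would be counted under Nutm1, which had 0 reads in BN1 and 2 in control. The fusion transcript was not analysed here. Of the 8 genes of the list of NUTM1, p300 and BET bromodomain proteins, 7 were tested and 0 were called, while DESeq2 called 2 higher.

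Of the 11657 tested genes, 577 were higher in BN1 and 771 were lower, which is 4.95% and 6.61% of those tested and 11.6% together. The changes were mostly small: the median absolute log2 fold change of the called genes was 0.68, 453 changed by less than 1.5-fold and 316 by more than 2-fold. Of those over 2-fold, 199 rose and 117 fell. BN1 and control libraries did not overlap for 1138 of the called genes and overlapped for 210, while they did not overlap for 28.1% of all tested genes. All 3 code pairs moved the same way for 1346 of the 1348, against 50% of all tested genes.

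The number of calls rested on the block and on single libraries. Without the code as a block, 3 genes were called, namely Gldc, Ccl9 and Sh2d5, and 2351 had an unadjusted p under 0.05. Leaving out control 3 left 28 calls, control 1 left 186, control 2 left 764, BN1 1 left 331 and BN1 2 left 331, while leaving out BN1 3 left 1336. Leaving out all libraries of code 0716, 0730 or 0802 gave 594, 143 and 684 calls in that order. In each of these 9 fits, 1345 to 1348 of the 1348 called genes kept their sign. This was nearly fixed in advance, because all 3 code pairs moved the same way for 1346 of them. It gives no separate support for the directions. Of the 93 genes that are called and covered by the naming rule, 8 kept their call without control 3, 31 without control 1 and 79 without BN1 3.

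AFFN1 libraries, which share this fit, were left out only together with the others of their code. Calls kept throughout were few: 16 genes were called in all 9 of those fits, 6 higher and 10 lower. The higher ones were Zfp709, Bace1, Ccl9, Kdm5b, Sh2d5 and H1f0. Kdm5b, a histone H3 lysine 4 demethylase, was at 12.2, 26.0 and 39.8 CPM in BN1, against 2.91, 3.88 and 9.20 CPM in control (log2 fold change 2.33, adjusted p = 0.00132). H1f0, a linker histone of slowly dividing cells, was at 65.2, 78.7 and 202 CPM in BN1, against 34.9, 42.8 and 96.8 CPM in control (log2 fold change 0.95, adjusted p = 0.00246). For H1f0 the pairs moved together although code 0802 was high in both groups. The lower ones were Gldc, Cxcr5, Ccdc42, Ssc5d, Gm266, Syndig1l, Vat1l, B3galt5, Fabp5 and Sla2. Fabp5, which carries fatty acids in the cytosol, was at 20.5, 10.8 and 27.0 CPM in BN1, against 62.8, 30.7 and 69.1 CPM in control (log2 fold change -1.49, adjusted p = 0.00235). Sla2, an adaptor that dampens antigen receptor signalling, was at 54.5, 18.2 and 44.2 CPM in BN1, against 142, 57.7 and 102 CPM in control (log2 fold change -1.41, adjusted p = 0.00132). In code 0730, both groups were low for Sla2 and Fabp5, and BN1 2 still lay under control 2.

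Ccl9, Sh2d5 and Dpp4 rose by more than the spread between libraries. Ccl9 (ENSMUSG00000019122, mm10 chr11:83572919-83578636, minus strand), a chemokine that attracts dendritic cells, was at 89.1, 107 and 78.3 CPM in BN1, against 17.8, 17.8 and 7.83 CPM in control. Every BN1 library lay above every control library, 6.47-fold over control in the fit (log2 fold change 2.69, SE 0.22, adjusted p = 0.00132), and Ccl9 was also called without the block. Sh2d5, an adaptor protein with an SH2 domain, was at 174, 144 and 128 CPM in BN1, against 65.3, 64.1 and 57.0 CPM in control (log2 fold change 1.25, SE 0.12, adjusted p = 0.00132), and was likewise called without it. Dpp4 (ENSMUSG00000035000, mm10 chr2:62330073-62412231, minus strand), the surface peptidase CD26, was at 253, 338 and 371 CPM in BN1, against 99.6, 94.6 and 92.1 CPM in control (log2 fold change 1.71, SE 0.21, adjusted p = 0.00854). The 3 control libraries of Dpp4 lay within a narrow range and the BN1 libraries well above it.

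Several genes at low levels in control rose by more. Zfp709, a zinc finger gene, had the largest rise among the genes covered by the naming rule, at 9.21, 10.4 and 14.4 CPM in BN1, against 0.324, 0.431 and 1.37 CPM in control (17.6-fold, log2 fold change 4.14, SE 0.51, adjusted p = 0.00821). Pcp4l1, a paralog of the calmodulin-binding Purkinje cell protein 4, was at 32.5, 23.1 and 20.3 CPM in BN1, against 1.40, 1.40 and 2.33 CPM in control (log2 fold change 3.99, SE 0.73, adjusted p = 0.0305). Tmtc1 was at 27.0, 35.2 and 27.8 CPM in BN1, against 0.54, 5.28 and 3.11 CPM in control (log2 fold change 3.72, adjusted p = 0.0329), with the lowest control value in the 0716 library. Maf, a basic leucine zipper transcription factor, was at 21.2, 23.5 and 16.3 CPM in BN1, against 1.62, 3.67 and 4.54 CPM in control (log2 fold change 2.79, adjusted p = 0.017). Its BN1 libraries all exceeded its control libraries. Cysltr1, a leukotriene receptor, was at 3.12, 10.1 and 8.90 CPM in BN1, against 0.486, 0.377 and 0.657 CPM in control (log2 fold change 3.80, adjusted p = 0.00684), and Bace1, the beta-secretase, at 4.58, 10.3 and 7.76 CPM in BN1, against 0.486, 0.971 and 1.31 CPM in control (log2 fold change 3.02, adjusted p = 0.00678). The others among the 12 largest rises were Eya1, Smoc1, Slc15a2, Sash1 and BC043934, with log2 fold changes between 2.52 and 3.45. BN1 and control overlapped for BC043934 alone among the 12.

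**Figure D1:**
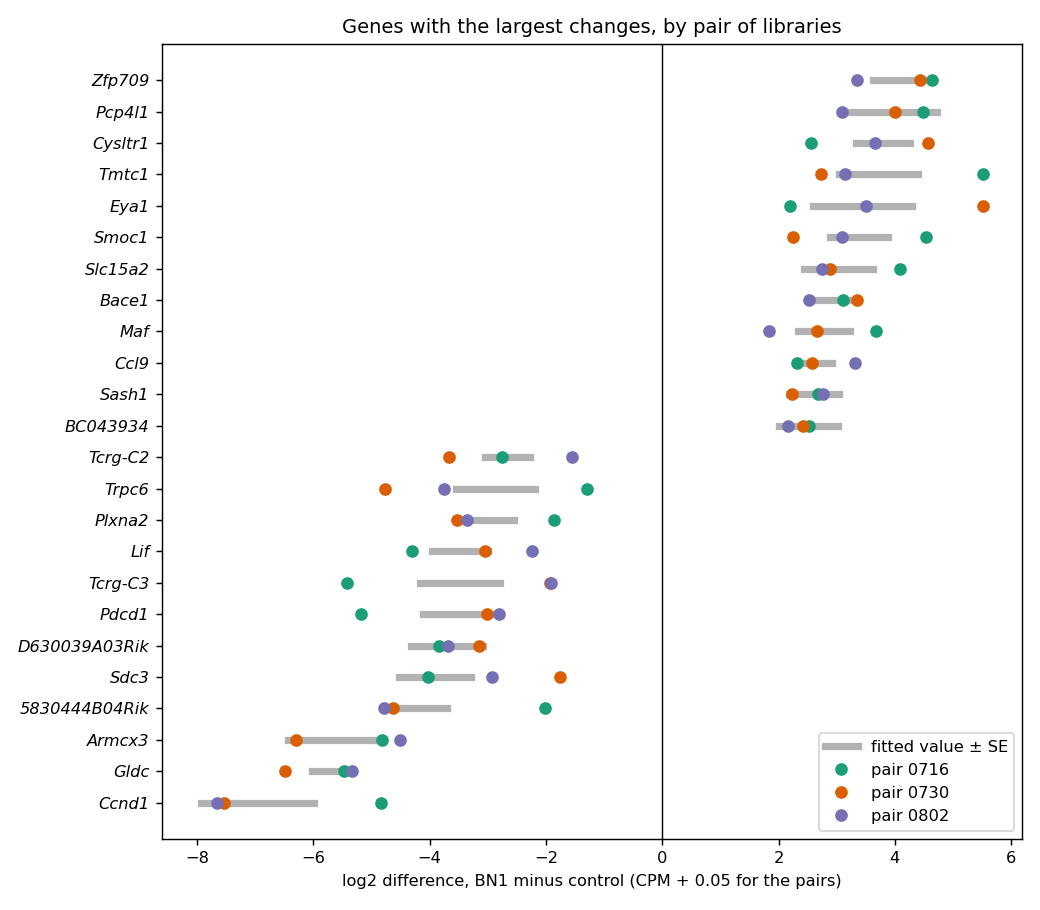
Log2 difference between BN1 and control in each of the 3 code pairs (points, from CPM + 0.05) and the fitted log2 fold change ± SE (grey bars) for the 12 largest rises and 12 largest falls among called genes with at least 5 CPM in the higher group. Only genes whose 3 code pairs all moved one way were eligible. Points of a gene therefore lie on the same side of 0 by selection, which is not a finding. The pairs of Ccnd1, Trpc6 and Tcrg-C3 are spread more widely than those of Ccl9 or Gldc.

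The fall with the smallest adjusted p was that of Gldc (ENSMUSG00000024827, mm10 chr19:30098447-30175429, minus strand), the glycine decarboxylase of the mitochondrial glycine cleavage system. It was at 0.646, 0.108 and 0.651 CPM in BN1, against 30.9, 14.1 and 28.3 CPM in control, so that the transcript was near the floor in all BN1 libraries and readily counted in all control libraries. The fitted difference was 52.9-fold (log2 fold change -5.73, SE 0.29, adjusted p = 1.85e-05), it was called in 9 of the 9 leave-out fits, and it was also called without the block. Ccnd1 (ENSMUSG00000070348, mm10 chr7:144929931-144939925, minus strand), which encodes cyclin D1, had the largest fitted fall, at 1.02, 1.14 and 1.03 CPM in BN1, against 30.7, 219.8 and 218 CPM in control (log2 fold change -6.96, SE 0.97, adjusted p = 0.0222). Control 1 held far less Ccnd1 than the other control libraries but still more than any BN1 library, and Ccnd1 was called in 3 of the 9 leave-out fits. Cyclin D2, encoded by Ccnd2, also fell, at 247, 95.5 and 299.6 CPM in BN1, against 529, 229 and 422 CPM in control (log2 fold change -0.93, SE 0.18, adjusted p = 0.0181), with overlapping groups.

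Pdcd1, Plxna2 and Lif were also among the 12 largest falls. Pdcd1, the inhibitory receptor PD-1, was at 0.538, 0.596 and 2.44 CPM in BN1, against 21.2, 5.18 and 17.3 CPM in control (log2 fold change -3.50, adjusted p = 0.0214). Plxna2, a semaphorin receptor, was at 13.2, 4.77 and 4.07 CPM in BN1, against 47.9, 55.6 and 41.9 CPM in control (log2 fold change -2.98, adjusted p = 0.0156). Lif, a cytokine of the interleukin 6 family, was at 0.969, 0.217 and 0.543 CPM in BN1, against 20.1, 2.16 and 2.75 CPM in control (log2 fold change -3.47, adjusted p = 0.00906). For these 3 genes each control library lay above each BN1 library. Armcx3, 5830444B04Rik, D630039A03Rik, Sdc3, Trpc6, Tcrg-C2 and Tcrg-C3 completed the 12 largest falls, with log2 fold changes between -5.61 and -2.66. Sdc3, a heparan sulphate proteoglycan, was at 2.26, 0.108 and 0.326 CPM in BN1, against 37.5, 0.485 and 2.81 CPM in control, with groups that overlapped. The T-cell receptor gamma constant segments Tcrg-C2 and Tcrg-C3 are near-identical copies, so their separate counts are uncertain.

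Rag1 and Rag2, which cut the immunoglobulin loci, rose, while Dntt was not called. Rag1 (ENSMUSG00000061311, mm10 chr2:101638282-101649501, minus strand), a subunit of the recombinase, was at 1018, 1033 and 1289 CPM in BN1, against 168, 407 and 345 CPM in control (3.92-fold, log2 fold change 1.97, SE 0.29, adjusted p = 0.0137). Rag2, its partner, was at 161, 174 and 139 CPM in BN1, against 40.9, 96.3 and 59.5 CPM in control (2.54-fold, log2 fold change 1.34, SE 0.22, adjusted p = 0.0137). All BN1 libraries exceeded all control libraries for both genes, and the control of code 0716 was the lowest for both. Rag1 and Rag2 were called in 6 and 7 of the 9 leave-out fits. Dntt, the polymerase that adds bases at the joints, was at 297, 609 and 497 CPM in BN1, against 16.8, 465 and 308 CPM in control and was not called (log2 fold change 1.52, adjusted p = 0.307). Control 1 lay far below the other 5 libraries for Dntt.

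Of the 20 pro-B and pre-B genes, all tested, 5 rose and 0 fell, against 4.95% of all tested genes that rose and 6.61% that fell. Their median log2 fold change was 0.41, against -0.000924 over all tested genes. Besides Rag1 and Rag2, the genes that rose were Blnk, Il7r and Bst1. Blnk, the adaptor that links the pre-B receptor to its downstream enzymes, was at 967, 1158 and 976 CPM in BN1, against 401, 783 and 736 CPM in control (log2 fold change 0.76, adjusted p = 0.024). Il7r, the interleukin 7 receptor, was at 432, 424 and 583 CPM in BN1, against 144, 343 and 316 CPM in control (log2 fold change 0.91, adjusted p = 0.0284). For Blnk and Il7r the groups did not overlap, and the lowest library was control 1. Each was called in 3 of the 9 leave-out fits. Vpreb1, the other part of the surrogate light chain, was not called (log2 fold change 0.18, adjusted p = 0.404). The number of rises was 0 without control 3, 1 without control 1, 2 without BN1 1 or the 0716 libraries, 3 without BN1 2 or the 0730 libraries, 4 without control 2 or the 0802 libraries and 7 without BN1 3. The median was 0.18 without BN1 1, the lowest of the 9 leave-out fits, and at most 0.53 in the others.

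Of the 17 B-lineage transcription factors, 5 rose and 0 fell, against 4.95% of all tested genes that rose. Their median log2 fold change was 0.33. Foxo1, which activates the Rag genes, was at 282, 262 and 318 CPM in BN1, against 150.3, 185 and 186 CPM in control (log2 fold change 0.73, adjusted p = 0.021). Tcf12, an E protein, was at 277, 282 and 260.5 CPM in BN1, against 145, 235 and 143 CPM in control (log2 fold change 0.69, adjusted p = 0.0185), and Lef1, a high mobility group factor of early B cells, at 678, 785 and 642 CPM in BN1, against 331, 601 and 381 CPM in control (log2 fold change 0.72, adjusted p = 0.0208). In these 3 genes BN1 lay above control in every pair and the groups were apart. Ikzf1 and Bach2 had log2 fold changes of 0.49 and 0.52. Ebf1, which specifies the lineage together with Pax5, was at 821, 646 and 981 CPM in BN1, against 526, 577 and 798 CPM in control and was not called (log2 fold change 0.37, adjusted p = 0.0998). None of the 17 was called without control 1, without BN1 1 or without control 3, 1 was called without the 0716 or the 0730 libraries, 2 without BN1 2, and 3 without control 2 or the 0802 libraries.

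Of the later B-cell genes, 10 of 14 were tested, and 0 rose and 2 fell, against 6.61% of all tested genes that fell. The list as a whole was not lower: 7 of the 10 had a positive fold change and 3 a negative one. Their median log2 fold change was 0.25, and it lay between -0.16 and 0.52 over the 9 leave-out fits. Cxcr5 (ENSMUSG00000047880, mm10 chr9:44511787-44561877, minus strand), a homing receptor of follicles, was at 57.6, 21.9 and 67.7 CPM in BN1, against 207, 103 and 205 CPM in control (log2 fold change -1.89, SE 0.15, adjusted p = 0.000929), and was called in 9 of the 9 leave-out fits. Cd74, the invariant chain of MHC class II, was at 78.8, 33.2 and 100.1 CPM in BN1, against 542, 69.0 and 389.7 CPM in control (log2 fold change -1.95, adjusted p = 0.023). Cd74 was low in both groups of code 0730, where the difference was smallest. The class II genes H2-Aa, H2-Ab1 and H2-Eb1 stayed under 2 CPM in each of the 6 libraries. Cd22 was at 16.0, 49.6 and 51.3 CPM in BN1, against 18.4, 24.4 and 61.8 CPM in control and was not called. The number of falls was 2 without the 0716 libraries and 1 without control 1, control 3, BN1 2 or the 0802 libraries.

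**Figure D2:**
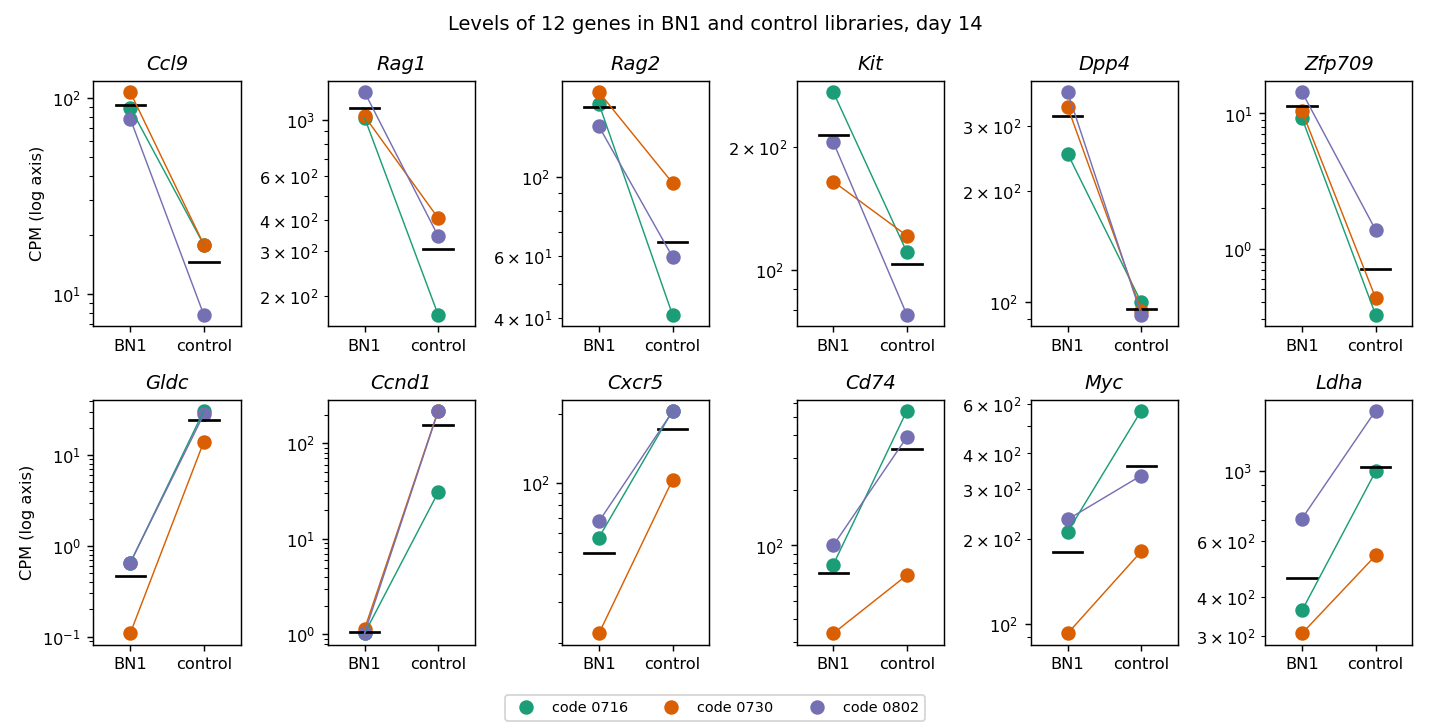
Levels in CPM (log axis) of 12 genes in the BN1 libraries (left) and control libraries (right) of day 14, with 1 colour per library code, lines joining the pairs and bars at the group means. In the top row each BN1 library lies above its control, and in the bottom row each lies below it.

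Of the 12 tested of 20 stem and multipotent progenitor genes, 3 rose and 0 fell, against 4.95% of all tested genes that rose. Their median log2 fold change was 0.46. Kit, the stem cell factor receptor, was at 272, 164 and 205 CPM in BN1, against 110.5, 121 and 77.6 CPM in control (log2 fold change 1.03, SE 0.20, adjusted p = 0.0185). Meis1, a cofactor of Hox proteins, was at 0.969, 1.46 and 2.82 CPM in BN1, against 0.378, 0.108 and 0.777 CPM in control, a low level in both groups (log2 fold change 2.11, adjusted p = 0.0284). Erg, an ETS transcription factor, was at 273, 241 and 296 CPM in BN1, against 208, 173 and 212 CPM in control (log2 fold change 0.45, adjusted p = 0.0306). Kit was called in 5 of the 9 leave-out fits, Meis1 and Erg in 1 each. Flt3, another receptor of early progenitors, was at 18.7, 5.80 and 27.0 CPM in BN1, against 10.7, 6.96 and 21.2 CPM in control and was not called. The number of rises was 0 without control 1, control 3, BN1 1 or the 0802 libraries, 1 without control 2, BN1 2 or the 0730 libraries and 2 without BN1 3 or the 0716 libraries, and without control 2 there was also 1 fall. The median was 0.29 without BN1 1 and 0.34 to 0.52 in the other leave-out fits.

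Of the 11 Hoxa cluster genes, 2 reached the test and 0 were called. Hoxa9 was at 1.08, 1.35 and 3.26 CPM in BN1, against 1.94, 0.216 and 0.777 CPM in control (log2 fold change 0.97, SE 0.70, adjusted p = 0.393), so the groups overlapped at a low level. Hoxa7 was at 3.98, 6.23 and 9.60 CPM in BN1, against 6.64, 1.73 and 2.39 CPM in control (log2 fold change 0.79, adjusted p = 0.528), with control 1 above BN1 1. In the fit without the 0716 libraries 2 members were called higher, and without control 1 it was 1. Hoxa10, Hoxa11 and Hoxa13 had 0 counts in all 6 libraries. Of the 5 tested fetal progenitor genes, 1 rose, against 4.95% of all tested genes. It was Igf2bp3, an RNA-binding protein, at 143, 142 and 107 CPM in BN1, against 90.5, 104 and 83.8 CPM in control (log2 fold change 0.49, adjusted p = 0.0222). In this list 0 rose in 7 of the 9 leave-out fits, all except those without BN1 3 or the 0802 libraries.

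Il7r rose, and Socs2, Bcl2 and Ccnd2 fell. Of the 15 genes of interleukin 7 and Stat5 signalling, 1 rose, Il7r, and 3 fell, against 4.95% and 6.61% of all tested genes. Socs2, a feedback inhibitor that Stat5 induces, was at 277, 155 and 221 CPM in BN1, against 622, 287 and 405 CPM in control (log2 fold change -0.97, SE 0.14, adjusted p = 0.00953). Bcl2, the survival protein, was at 21.6, 10.7 and 25.5 CPM in BN1, against 139, 18.2 and 63.4 CPM in control (log2 fold change -1.65, adjusted p = 0.0424), and Ccnd2 is described above. In code 0730 both groups were low for Bcl2, and the control of code 0716 was the highest. The groups overlapped for Bcl2, and Bcl2 and Ccnd2 were each called in 3 of the 9 leave-out fits. The number of falls was 0 without control 3 or the 0730 libraries, 1 without BN1 1 or BN1 2, 2 without control 1 or the 0802 libraries, 3 without control 2 or BN1 3 and 4 without the 0716 libraries. A rise was called in 3 of the 9 fits, those without BN1 2, control 2 or the 0730 libraries.

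Genes of growth and metabolism fell in several lists. Myc (ENSMUSG00000022346, mm10 chr15:61985391-61990374, plus strand) was at 211, 92.4 and 234 CPM in BN1, against 567, 180.1 and 334 CPM in control (log2 fold change -0.95, SE 0.20, adjusted p = 0.0231). BN1 was below control within each code, although code 0730 was low in both groups and the groups overlapped. Myc was called in 3 of the 9 leave-out fits. Of the 19 genes for Myc and ribosome biogenesis, 14 fell and 0 rose, against 6.61% of all tested genes that fell. All 19 had a negative fold change, and their median was -0.83. Odc1, the first enzyme of polyamine synthesis and a known Myc target, was at 80.7, 53.1 and 110.3 CPM in BN1, against 219, 118 and 182 CPM in control (log2 fold change -1.09, adjusted p = 0.0122). Fbl, the nucleolar RNA methyltransferase fibrillarin, was at 193, 164 and 173 CPM in BN1, against 343, 235 and 291 CPM in control (log2 fold change -0.70, adjusted p = 0.0121), and Nop58, its partner in small nucleolar particles, at 80.8, 63.8 and 88.9 CPM in BN1, against 182, 113 and 165 CPM in control (log2 fold change -0.96, adjusted p = 0.0125). The groups did not overlap for any of these 3.

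The summed level of these 19 genes was 3699.9, 2740.4 and 3823 CPM in BN1, against 7189.6, 4477 and 5721 CPM in control. Each control library exceeded each BN1 library. The number that fell was 9 without the 0716 libraries, 3 without control 1, 5 without BN1 1, 1 without BN1 2, 8 without control 2, and 0 without control 3 or without the 0730 libraries. The median stayed between -1.11 and -0.64 over the 9 leave-out fits. In bulk samples, fewer cells of a kind and less RNA per cell cannot be told apart, here as in all other results. Cytosolic ribosomal protein genes, by contrast with the factors that build ribosomes, had 2 falls and 0 rises among 77 tested and a median of -0.12. The difference between the 2 lists was not tested.

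Glycolysis followed the same direction. Of 21 tested genes of glycolysis and the hypoxia response, 10 fell and 0 rose, against 6.61% of all tested genes that fell. Their median was -0.63. Ldha (ENSMUSG00000063229, mm10 chr7:46841475-46855627, plus strand), which turns pyruvate into lactate, was at 362, 307 and 706 CPM in BN1, against 994, 539.9 and 1544 CPM in control (log2 fold change -1.13, SE 0.16, adjusted p = 0.00854). Eno1, enolase, was at 668, 502 and 1555 CPM in BN1, against 1483, 884 and 3196 CPM in control (log2 fold change -1.01, adjusted p = 0.00821), and Pfkl, a phosphofructokinase subunit, at 30.8, 28.3 and 57.2 CPM in BN1, against 63.1, 41.1 and 125 CPM in control (log2 fold change -0.91, adjusted p = 0.0107). Both groups were highest in code 0802 for these 3 genes, so the groups overlapped while each pair was lower in BN1. Ldha, Eno1 and Pfkl were called in 8 of the 9 leave-out fits each, all except the one without control 3. The count of falls was 8 without the 0716 libraries, 6 without the 0730 libraries, 6 without BN1 2, 5 without control 1 and 0 without control 3.

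One-carbon metabolism, which feeds purine and thymidylate synthesis, was lower beyond Gldc. Of 13 tested genes for glycine cleavage and one-carbon metabolism, 7 fell and 0 rose, against 6.61% of all tested genes that fell. Their median was -0.82. Mthfd2, the mitochondrial folate enzyme, was at 18.7, 19.8 and 45.1 CPM in BN1, against 79.5, 44.1 and 73.2 CPM in control (log2 fold change -1.29, adjusted p = 0.0201). Gcsh, the lipoyl carrier of the glycine cleavage system, was at 13.0, 13.1 and 14.8 CPM in BN1, against 31.4, 20.9 and 22.0 CPM in control (log2 fold change -0.84, adjusted p = 0.0147), and Mthfd1 at 61.3, 46.0 and 60.3 CPM in BN1, against 126, 90.5 and 85.4 CPM in control (log2 fold change -0.82, adjusted p = 0.0242). Shmt1 and Gart also fell, with log2 fold changes of -0.83 and -0.82. Gldc alone was called without control 3, without control 1, without BN1 2 and without the 0730 libraries. The number was 4 without the 0716 libraries, 2 without BN1 1 and 3 without control 2.

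Nuclear genes of oxidative phosphorylation showed small falls. Of 91 tested, 30 fell and 0 rose, against 6.61% of all tested genes that fell, and the median was -0.40. Atp5g1, which encodes a subunit of the ATP synthase ring, was at 72.3, 70.5 and 77.6 CPM in BN1, against 174, 104 and 123 CPM in control (log2 fold change -0.84, adjusted p = 0.0137). Cox5a, of cytochrome c oxidase, was at 79.4, 78.4 and 86.2 CPM in BN1, against 148, 105 and 130.3 CPM in control (log2 fold change -0.64, adjusted p = 0.0145). The 13 mitochondrial genome transcripts gave 0 calls, with a median of -0.12. The 30 falls dropped to 0 without control 1 or control 3, to 1 without BN1 1 or the 0730 libraries, to 3 without the 0716 and 5 without the 0802 libraries, and to 11 and 12 without BN1 2 and BN1 3.

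**Figure D3:**
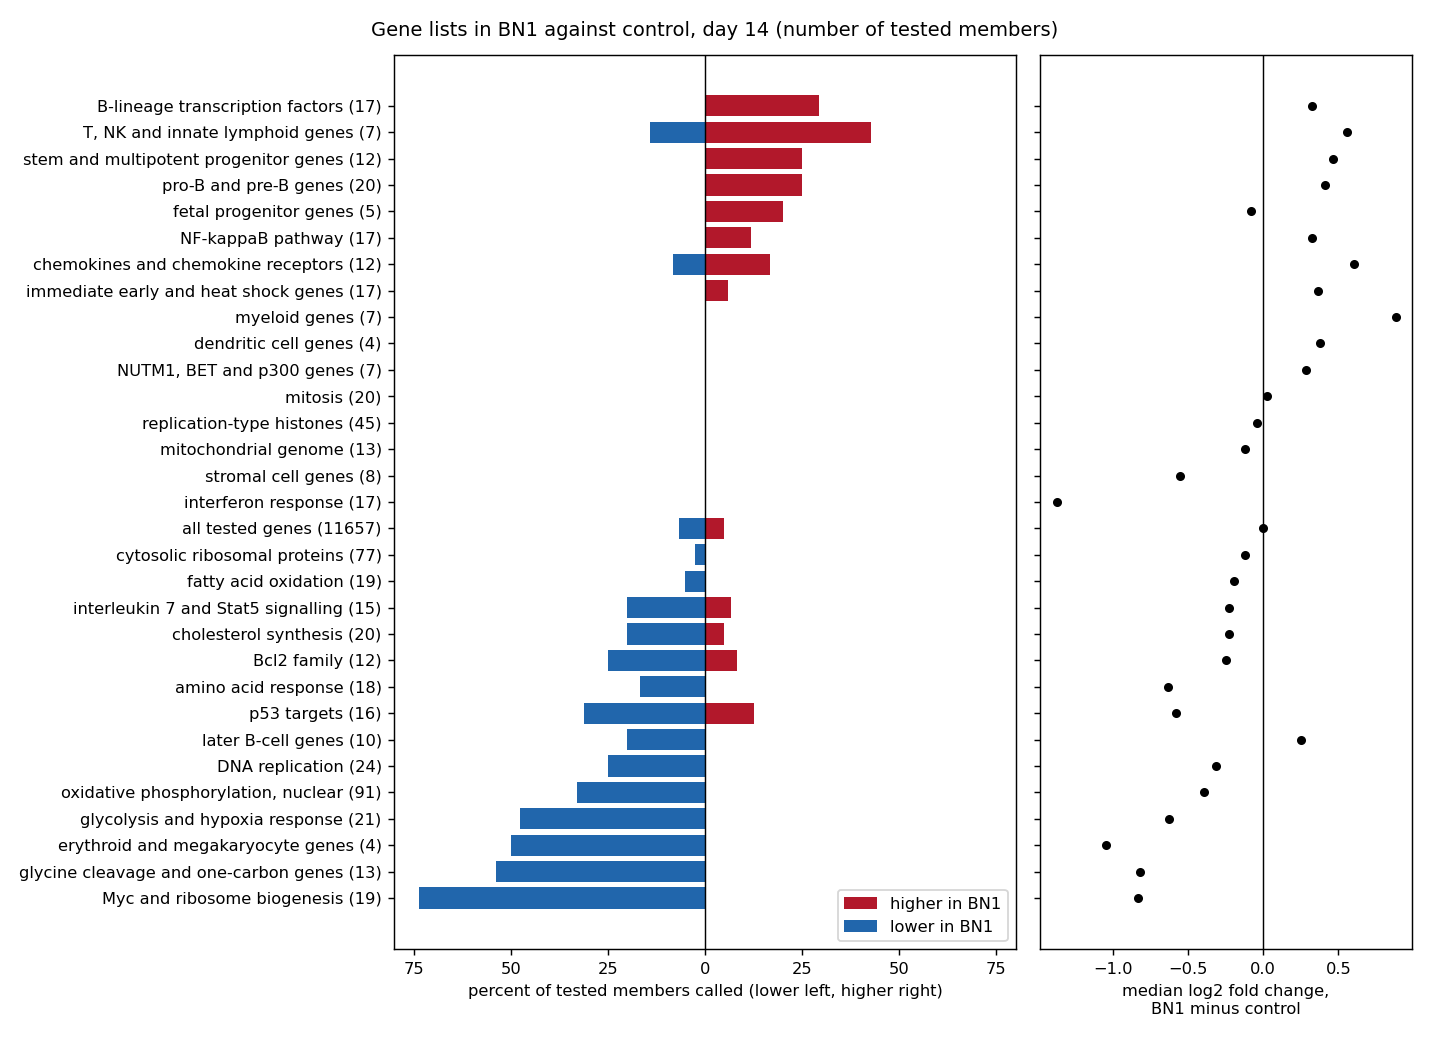
For the 30 gene lists with at least 4 tested members and for all tested genes, the left panel shows the percent of tested members called higher (right) or lower (left) in BN1, and the right panel the median log2 fold change. Lists are ordered by the percent higher minus the percent lower: Myc and ribosome biogenesis (14 of 19 lower), one-carbon genes (7 of 13) and the 4 erythroid genes (2 lower) come last, and the B-lineage transcription factors (5 of 17 higher) and the T, NK and innate lymphoid genes (3 of 7 higher, 1 lower) first.

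Of 24 DNA replication genes 6 fell and 0 rose, against 6.61% of all tested genes that fell. Their median was -0.32. Fen1, the flap endonuclease of lagging strand synthesis, was at 103, 102 and 97.7 CPM in BN1, against 161, 151 and 145 CPM in control (log2 fold change -0.59, adjusted p = 0.0287), and Cdc45, a helicase subunit, at 49.6, 55.7 and 47.0 CPM in BN1, against 63.2, 82.1 and 72.2 CPM in control (log2 fold change -0.51, adjusted p = 0.0242). Both had groups that did not overlap. None of the 20 mitosis genes was called, with a median of 0.02. Without control 3, without control 1, without control 2, without BN1 1, without BN1 2 or without the 0730 libraries, 0 of the 24 replication genes were called. The number was 1 without the 0716 and 2 without the 0802 libraries.

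Of 16 tested p53 targets, 5 fell and 2 rose, against 6.61% and 4.95% of all tested genes. Bax, which permeabilises mitochondria, was at 46.5, 45.5 and 50.03 CPM in BN1, against 94.3, 71.1 and 97.8 CPM in control (log2 fold change -0.88, SE 0.12, adjusted p = 0.00821), and was called in 8 of the 9 leave-out fits. Ccng1, Phlda3, Aen and Cdkn1a also fell, with log2 fold changes between -1.44 and -0.60. Trp53inp1, a p53-induced nuclear protein, was at 456, 395 and 409.6 CPM in BN1, against 167, 325 and 208 CPM in control (log2 fold change 0.90, adjusted p = 0.0306), and Btg2, an antiproliferative gene, rose by 0.98 on the log2 scale. In the Bcl2 family, Bmf, a death-promoting BH3-only gene, was at 89.9, 118 and 142 CPM in BN1, against 27.4, 46.6 and 80.1 CPM in control (log2 fold change 1.32, adjusted p = 0.0137). It rose, while Bid, Bax and Bcl2 fell. The number of p53 targets that fell was 0 without control 3, 1 without control 1, control 2, BN1 1, BN1 2 or the 0730 libraries, 4 without the 0802 libraries, 5 without BN1 3 and 6 without the 0716 libraries, with at most 1 rise in each fit. In the Bcl2 family 0 fell without control 3, 1 without BN1 1, BN1 2, the 0730 or the 0802 libraries, 2 without BN1 3, control 1 or control 2 and 3 without the 0716 libraries, and 0 rose without BN1 2, control 1, control 3 or the 0730 libraries.

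Genes of T, NK and innate lymphoid cells changed singly. Of 19 such genes 7 were tested, and 3 rose and 1 fell, against 4.95% and 6.61% of all tested genes. Tcf7, the T-lineage counterpart of Lef1, was at 32.7, 30.6 and 28.0 CPM in BN1, against 7.50, 16.7 and 12.7 CPM in control (log2 fold change 1.37, SE 0.25, adjusted p = 0.0165). Notch1 rose by 0.56 on the log2 scale, and Klrb1c was at 1.45, 1.84 and 3.85 CPM in BN1, against 0.054, 0.377 and 0.418 CPM in control (log2 fold change 3.25, adjusted p = 0.0354). Thy1, a surface glycoprotein, fell and was at 25.9, 17.3 and 29.1 CPM in BN1, against 38.7, 44.1 and 50.2 CPM in control (log2 fold change -0.90, adjusted p = 0.0128). The other 12 list members, among them the CD3 subunit genes Cd3e, Cd3d and Cd3g, were too low for the test. The T-cell receptor gamma segments Tcrg-C2 and Tcrg-C3, which fell as given above, were not in this list. The summed level of the list was 259, 220.3 and 293 CPM in BN1 and 151, 221 and 216 CPM in control. The number of rises was 0 without control 1, control 3 or the 0802 libraries, 1 without BN1 1, BN1 2 or the 0730 libraries and 2 without BN1 3 or the 0716 libraries, and the fall was not called without control 3 or the 0730 libraries.

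Among chemokines and their receptors, 12 were tested. Ccl9 and Cxcr4 rose and Cxcr5 fell. Without the 0716 libraries 3 members rose and 2 fell, and 1 rose without BN1 2, control 1, control 3, the 0730 or the 0802 libraries. Cxcr4, the bone marrow homing receptor, was at 330.3, 436 and 340.1 CPM in BN1, against 167, 338 and 256 CPM in control (log2 fold change 0.58, adjusted p = 0.0306), with overlapping groups. Jun, an immediate early transcription factor, was at 159.6, 132 and 192 CPM in BN1, against 70.8, 65.5 and 107 CPM in control (log2 fold change 1.01, SE 0.15, adjusted p = 0.00966), the 1 rise among 17 tested immediate early and heat shock genes. In the NF-kappaB list 2 of 17 rose: Tnfaip3, an inhibitor of the pathway, was at 55.9, 61.2 and 53.4 CPM in BN1, against 21.7, 49.3 and 32.7 CPM in control (log2 fold change 0.77, adjusted p = 0.0302), and Rel rose by 0.39 on the log2 scale. In the NF-kappaB list 0 rose in 7 of the 9 leave-out fits, and 1 in those without control 2 or the 0730 libraries. Without the 0716 libraries and without control 2, 1 member of this list fell. In the immediate early list 0 rose without control 3 or the 0730 libraries and 2 without BN1 3 or the 0802 libraries. The shares in these lists stand beside 4.95% of all tested genes that rose and 6.61% that fell.

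The remaining lists had few or no calls. Of 20 cholesterol synthesis genes, 4 fell and 1 rose, with a median of -0.23, and of 18 amino acid response genes 3 fell and 0 rose, with a median of -0.63. For cholesterol synthesis 0 fell without control 1, control 3 or the 0730 libraries, 1 without BN1 1, BN1 2, control 2 or the 0716 libraries and 2 without the 0802 libraries. For the amino acid response 0 fell in 6 of the 9 leave-out fits, 1 without control 2 and 8 without BN1 3, DESeq2 called 9, and the median was -0.33 without the 0716 libraries. Fatty acid oxidation had 1 fall among 19 genes, a share under the 6.61% of all tested genes, and 0 in each of the 9 leave-out fits, with relative log expression scaling and with DESeq2. The beta-globin genes Hbb-bt and Hbb-bs fell, which made 2 of the 4 tested erythroid genes, and 0 fell without BN1 1, control 1 or control 3. Hbb-bt was at 1.94, 2.22 and 6.02 CPM in BN1, against 7.34, 3.83 and 24.2 CPM in control (log2 fold change -1.59, adjusted p = 0.0181). They are close paralogs whose reads may be shared between them. There were 0 calls among 7 tested myeloid, 4 dendritic, 8 stromal, 17 interferon-response and 45 replication-type histone genes. DESeq2 called 3 myeloid genes higher and 1 lower and 2 dendritic genes higher, and without the 0716 libraries 1 myeloid and 1 dendritic gene rose and 2 stromal genes fell.

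Interferon-response genes were high in 1 control library. All 17 tested genes had a negative fold change, with a median of -1.38, yet 0 were called. Isg15, an interferon-induced ubiquitin-like protein, was at 0.754, 0.596 and 0.597 CPM in BN1, against 47.3, 0.647 and 0.598 CPM in control. Control 1 alone was high, and the same held for Oas1a, at 0.592, 0.434 and 0.326 CPM in BN1, against 69.2, 0.539 and 0.0598 CPM in control. Summed over the list, the level was 178, 159.7 and 179 CPM in BN1, 1303, 137 and 163 CPM in AFFN1 and 1452, 177 and 168 CPM in control. Without the 0716 libraries the median was -0.05. Whether these transcripts had a part in the other differences of code 0716 was not tested.

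**Figure D4:**
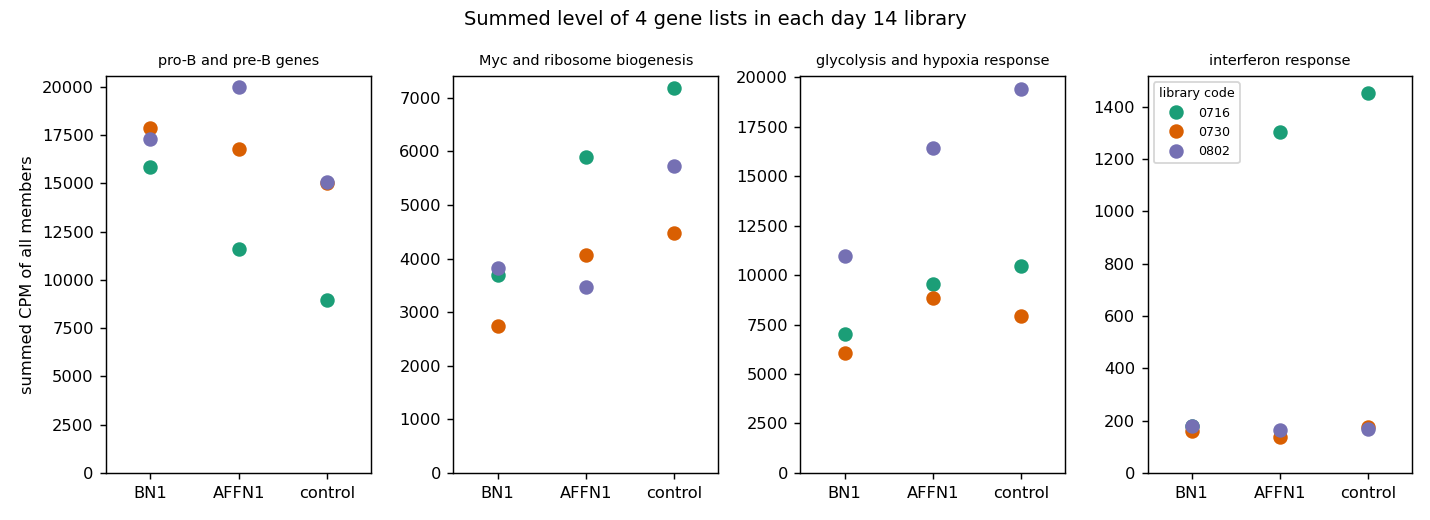
Summed CPM of 4 gene lists in each day 14 library of BN1, AFFN1 and control, coloured by library code. For Myc and ribosome biogenesis the BN1 libraries (2740 to 3823) lie under the control libraries (4477 to 7190), and for the interferon response the 0716 libraries of control (1452) and AFFN1 (1303) lie far above the rest.

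Promoters were read for 9106 tested genes from RefSeq (GRCm38.p6), from 250 bases before to 50 after the annotated start. The motifs were searched on both strands, and motifs can overlap. CACGTG, the E-box that Myc and its relatives bind, was in 15.2% of the 606 promoters of genes that fell and in 10.1% of the 457 of genes that rose, against 10.5% of all. CAGCTG, an E-box form bound by E proteins, was in 10.4% of those that fell and in 20.8% of those that rose, against 14.5% of all. CACCTG, which also covers its reverse complement, was in 14.5% of those that fell and 17.9% of those that rose, against 16.6% of all. CCCNNGGG, a form of the Ebf1 motif, was in 16.5% of those that fell and 23.9% of those that rose, against 17.6% of all. TTCNNNGAA, the Stat form, was in 7.26% of those that fell and 5.91% of those that rose, against 7.04% of all. These shares are descriptions and were not tested. Promoters of 4 genes that carry the results are shown 5′ to 3′ on the strand of the gene, with the first 3 of these motifs in capitals, on either strand. Rag1 (minus strand, chr2:101649483-101649782) and Ccl9 (minus strand, chr11:83578587-83578886) rose, Gldc (minus strand, chr19:30175392-30175691) and Ldha (plus strand, chr7:46845554-46845853, the first of 2 listed starts) fell.
Rag1: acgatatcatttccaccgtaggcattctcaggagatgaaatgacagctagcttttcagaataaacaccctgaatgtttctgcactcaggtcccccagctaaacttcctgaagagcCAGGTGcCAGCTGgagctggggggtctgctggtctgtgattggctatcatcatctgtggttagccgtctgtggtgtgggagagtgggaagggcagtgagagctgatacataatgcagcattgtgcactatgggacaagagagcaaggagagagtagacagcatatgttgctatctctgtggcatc
Ccl9: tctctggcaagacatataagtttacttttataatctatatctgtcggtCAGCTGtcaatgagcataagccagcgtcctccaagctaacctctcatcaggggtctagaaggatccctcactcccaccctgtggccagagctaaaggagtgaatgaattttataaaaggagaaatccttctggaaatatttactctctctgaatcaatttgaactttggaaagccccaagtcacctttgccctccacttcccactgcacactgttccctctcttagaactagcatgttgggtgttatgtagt
Gldc: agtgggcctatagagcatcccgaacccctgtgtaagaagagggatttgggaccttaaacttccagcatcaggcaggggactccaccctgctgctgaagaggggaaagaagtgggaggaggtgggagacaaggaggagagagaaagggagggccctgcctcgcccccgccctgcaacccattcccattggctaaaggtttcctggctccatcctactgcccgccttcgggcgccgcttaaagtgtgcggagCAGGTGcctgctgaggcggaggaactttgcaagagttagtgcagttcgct
Ldha: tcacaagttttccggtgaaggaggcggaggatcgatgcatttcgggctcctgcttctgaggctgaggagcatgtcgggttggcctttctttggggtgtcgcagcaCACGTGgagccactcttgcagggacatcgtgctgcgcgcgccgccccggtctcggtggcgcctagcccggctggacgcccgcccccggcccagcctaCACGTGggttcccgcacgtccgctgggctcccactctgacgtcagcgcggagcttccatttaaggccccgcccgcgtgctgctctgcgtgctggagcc
Rag1 holds a CAGGTG, the reverse complement of the third motif, and 1 base further a CAGCTG, Ccl9 a single CAGCTG, and Ldha 2 copies of CACGTG. Gldc holds a single CAGGTG close to the start and no CACGTG in this window.

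Set against AFFN1 cells, which carry the other fusion, BN1 differed at fewer genes: 21 of 11657 (0.18%) were called, 8 higher and 13 lower, and 1930 had an unadjusted p under 0.05. In the same fit AFFN1 against control gave 65 calls, and BN1 against control 1348. The few calls between the fusions therefore do not show that both had the same effect. DESeq2 called 360, and without the block 0 were called by edgeR. Ccl9 was at 89.1, 107 and 78.3 CPM in BN1, against 31.1, 30.2 and 30.1 CPM in AFFN1 (log2 fold change 1.56, SE 0.21, adjusted p = 0.0361), and Zfp709 at 9.21, 10.4 and 14.4 CPM in BN1, against 0.161, 1.52 and 1.02 CPM in AFFN1 (log2 fold change 3.77, SE 0.49, adjusted p = 0.0329). Smoc1, a secreted matricellular protein, was at 8.67, 3.79 and 7.49 CPM in BN1, against 0.161, 0.542 and 0.6 CPM in AFFN1 (log2 fold change 3.94, SE 0.52, adjusted p = 0.0307), and Irak3, an inhibitor of Toll-like receptor signalling, at 2.31, 9.86 and 7.60 CPM in BN1, against 0.215, 0.813 and 0.42 CPM in AFFN1 (log2 fold change 3.68, SE 0.45, adjusted p = 0.0237). Lynx1 was also higher in BN1 (log2 fold change 1.94, SE 0.27, adjusted p = 0.0361). For these genes BN1 lay above AFFN1 in each code.

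Lower in BN1 than in AFFN1 were Fbln1, Ccdc42, Ccdc166, Cxcr5 and Cst7 among the genes covered by the naming rule, and Eno1. Cxcr5 was at 57.6, 21.9 and 67.7 CPM in BN1, against 162, 51.8 and 129.9 CPM in AFFN1 (log2 fold change -1.22, SE 0.15, adjusted p = 0.0237). Cst7, a cystatin, was at 83.5, 31.2 and 44.0 CPM in BN1, against 219, 70.7 and 70.9 CPM in AFFN1 (log2 fold change -1.08, SE 0.16, adjusted p = 0.0361), and Eno1 at 668, 502 and 1555 CPM in BN1, against 1248, 938 and 2436 CPM in AFFN1 (log2 fold change -0.82, SE 0.13, adjusted p = 0.0482). For Gldc and Ccnd1, by contrast with Ccl9, the fusions were not told apart. Gldc was at 0.646, 0.108 and 0.651 CPM in BN1, against 0.107, 0.108 and 0.06 CPM in AFFN1 (log2 fold change 2.20, SE 0.54, adjusted p = 0.102), and Ccnd1 at 1.02, 1.14 and 1.03 CPM in BN1, against 2.36, 2.01 and 0.66 CPM in AFFN1 (log2 fold change -0.76, SE 1.16, adjusted p = 0.771). Rag1 was at 1018, 1033 and 1289 CPM in BN1, against 290.0, 623 and 962 CPM in AFFN1 and was not called (log2 fold change 1.00, SE 0.28, adjusted p = 0.18), nor was Myc (log2 fold change -0.49, SE 0.20, adjusted p = 0.269). The number of calls fell to 0 without BN1 2, without BN1 3 or without the 0802 libraries, to 5 without the 0730 libraries, and was 124 without the 0716 libraries.

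The difference between BN1 and control on day 14 was then compared with that on day 6. On day 6, fitted without a block, 2095 of 12068 tested genes (17.4%) were called. Of the day 14 calls, 1316 were tested on day 6 and 357 were called there too, 303 of these in the same direction. The genes below were picked mostly because their effect differed between the days. The descriptions of the days follow different naming schemes, so a difference between days cannot be told apart from one between experiments. The change of the BN1 effect was called for 733 of 12567 tested genes (5.83%), more positive on day 14 for 453 and more negative for 280. The number was 373 without the block, 312 without the 0716 libraries and 312 without the 0730 libraries. Dpp4 moved in opposite directions: it was at 253, 338 and 371 CPM in BN1, against 99.6, 94.6 and 92.1 CPM in control on day 14, and at 9.19, 3.09 and 2.93 CPM in BN1, against 215, 223 and 373 CPM in control on day 6 (change of the log2 effect 7.43, adjusted p = 5.97e-06). Cxcr5 fell on day 14 and was higher on day 6, at 13.9, 14.6 and 14.3 CPM in BN1, against 1.39, 3.66 and 2.94 CPM in control (change -4.31, adjusted p = 7.61e-06).

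Kit, Ccl9 and Ccnd1 also differed by day. On day 6 Kit was at 169, 193 and 174 CPM in BN1, against 233, 194 and 292 CPM in control, and it was not called on that day (change 1.46, adjusted p = 0.00485). Ccl9 on day 6 was at 82.5, 98.1 and 92.2 CPM in BN1, against 76.9, 38.3 and 144 CPM in control, with overlapping groups (change 2.63, adjusted p = 0.0162). Ccnd1 on day 6 was at 2.93, 2.00 and 3.82 CPM in BN1, against 7.41, 7.47 and 5.71 CPM in control (change -5.73, adjusted p = 0.0039). Hoxa9 went the other way: on day 6 it was at 17.1, 17.5 and 8.22 CPM in BN1, against 0.38, 0.147 and 0.283 CPM in control, while on day 14 it was low in both groups (change -4.71, adjusted p = 0.0045). For Rag1, Rag2, Il7r and Myc the change was not called, with values of 1.08, 0.66, 0.52 and -0.85 and adjusted p between 0.141 and 0.417.

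**Figure D5:**
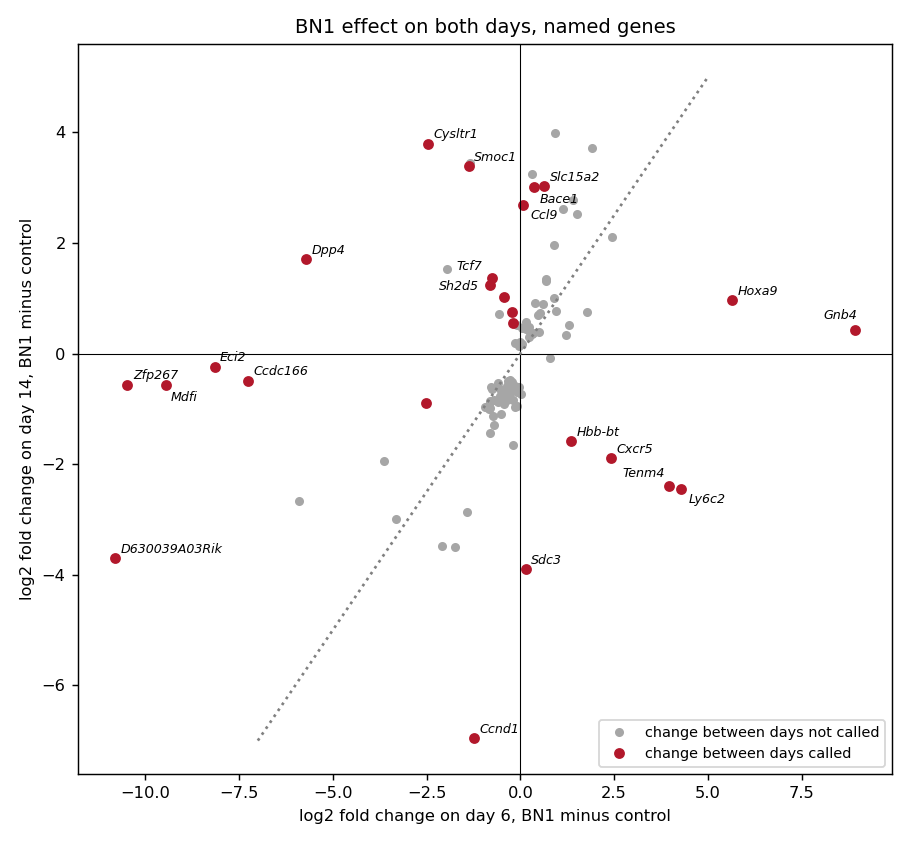
Log2 fold change of BN1 over control on day 6 (horizontal) and on day 14 (vertical) for 105 named genes, with the 25 whose change between days was called in red and the line of equal effects dotted. Dpp4 and Cysltr1 lie at upper left, and Cxcr5 and Tenm4 at lower right. Hoxa9 lies far right at a day 14 effect of 0.97, which was not called, and Gnb4 also lies far right.

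Within day 14 the code itself had an effect: 750 of 11657 genes (6.43%) differed by code with the group held fixed. Of the list genes, 16 of the 21 tested glycolysis and hypoxia genes and 14 of the 20 cholesterol synthesis genes differed by code. The 0802 libraries of both groups were high for Ldha, Eno1 and Aldoa, as given above for Ldha. Myc and ribosome biogenesis had 1 such gene of 19, and one-carbon genes 0 of 13.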

How the data were processed

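RNA was measured in 18 libraries, of which 6 (BN1 and control, day 14) form the main comparison. Per the labels' protocols, RNA of sorted cells was purified on columns, its poly(A) fraction was taken, and a stranded kit made the libraries. The deposited table holds expected counts per gene that the authors made with STAR and RSEM on mm10, per the submitters' processing notes, which also name DESeq2. Not given in the sources used here are tool versions, the gene annotation and whether counting used strand, so reads of a gene and an antisense partner cannot be told apart.

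Between 1.91 and 2.12% of the values in a day 14 library were not whole, and all were rounded before testing. In R 4.3.3, edgeR 4.0.16 was used with filterByExpr, TMM scaling and the robust quasi-likelihood test on the 9 day 14 libraries, with group and library code as terms (4 residual degrees of freedom). AFFN1 libraries entered this fit to share the estimate of spread. The change between days was fitted on all 18 libraries, with the code terms for day 14 only. P-values are two-sided and adjusted by Benjamini-Hochberg. DESeq2 1.42.0 was an alternative, as were relative log expression scaling, no low-count filter, no block, each code left out, and a fit of the 6 libraries alone. Single libraries were left out for the groups compared. Leave-out fits that leave a group with 2 libraries share the spread of the others.

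Equal numbers and codes pair the day 14 libraries: deviations from the group means correlated at 0.309 to 0.662 in the 9 pairs of the same code and at -0.539 to 0.0313 in the 18 others. No 2 libraries of a group agreed within counting noise. The fit was tested on simulated data with 100 genes changed 2-fold and 100 changed 4-fold. For BN1 against control, 73% and 98% of these were called, and 9.04% of the calls were unchanged genes. For BN1 against AFFN1 the values were 86%, 96% and 9.45%, and for the change between days 54%, 85% and 4.14%. Coordinates are those of GENCODE M21 (mm10), in which 32158 of 32285 gene identifiers (99.6%) were found, and promoters are from RefSeq (GRCm38.p6).

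Named genes are the 12 largest rises and 12 largest falls among called genes with a mean of 5 CPM or more in the higher group and the same direction in all 3 code pairs, genes called without the block, 18 fixed genes, up to 4 called members of each of 33 lists, and up to 5 genes in each direction in the other comparisons. Further genes were named after their values were seen, among them Kdm5b, H1f0, Isg15 and Oas1a. The genes, lists and comparisons were chosen with earlier results of these data known, so the lists carry no test and are described by counts and medians.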

Additional observations from a re-analysis of the deposited data

Results flagged for a closer look

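These genes were singled out because the BN1 effect differed between day 14 and day 6 by edgeR's test of the difference itself, with adjusted p under 0.05. All values are the log2 effect on day 14 minus that on day 6, and the days cannot be told apart from separate experiments.

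Among the genes that rose on day 14, the change was 7.95 for Zfp709, 6.26 for Cysltr1, 4.77 for Smoc1, 2.38 for Slc15a2, 2.67 for Bace1, 2.63 for Ccl9, 2.07 for Sh2d5 and 3.37 for Irak3. Cysltr1 was lower in BN1 on day 6, at 0.747, 0.193 and 0.382 CPM in BN1, against 3.55, 1.39 and 2.49 CPM in control, and Sh2d5 likewise, at 161, 150.1 and 144 CPM in BN1, against 288, 226 and 288 CPM in control. Both were called on both days, in opposite directions. The precursor and signalling genes Kit, Blnk, Tcf7 and Notch1 changed by 1.46, 0.98, 2.14 and 0.77, and Dpp4 by 7.43.

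Among the genes that fell on day 14, Ccnd1 changed by -5.73, Sdc3 by -4.05, Cxcr5 by -4.31 and Hbb-bt by -2.93. Hbb-bt was higher in BN1 on day 6, at 4.08, 4.58 and 3.38 CPM in BN1, against 1.58, 1.76 and 1.36 CPM in control. Thy1 and D630039A03Rik fell on both days, and their changes of 1.62 and 7.03 mean a smaller fall on day 14.

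Several genes differed in BN1 on day 6 and were not called on day 14. Eci2, a fatty acid isomerase of mitochondria, was at 17.8, 20.4 and 19.6 CPM in BN1, against 15.7, 25.4 and 29.0 CPM in control on day 14, and at 0.0575, 0.0645 and 0.127 CPM in BN1, against 23.8, 25.2 and 28.0 CPM in control on day 6, a change of 7.92. Zfp267, Mdfi and Ccdc166, all nearly without counts in BN1 on day 6, changed by 9.84, 8.83 and 6.74. Gnb4, Lin28b and Hoxa9, high in BN1 on day 6, changed by -8.52, -6.39 and -4.71, and Tenm4 by -6.37. On day 14 Gnb4 was at 12.0, 4.71 and 11.1 CPM in BN1, against 16.2, 2.37 and 3.88 CPM in control, with overlapping groups. Where a group had 0 counts, as BN1 on day 6 had for Zfp709, D630039A03Rik, Zfp267 and Mdfi, the fitted change depends on the small count that edgeR adds. Zfp709 was near 0 in control on day 6 as well, at 0.0634, 0.0733 and 0.17 CPM, and was not tested within that day.

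Ifi44 and Ly6c2 changed by -7.32 and -7.21. On day 14 Ifi44 was at 0, 0.0542 and 0 CPM in BN1, against 25.1, 0.0539 and 0 CPM in control, and Ly6c2 at 1.13, 1.08 and 2.33 CPM in BN1, against 128, 1.08 and 2.57 CPM in control. Control 1 alone was high for both, and neither had a called difference within day 14. The change of Ifi44 was -1.97 with DESeq2 (DESeq2 adjusted p = 0.639) and was called neither there nor without the block (edgeR adjusted p = 0.477). Without control 1 neither Ifi44 nor Ly6c2 was called, and the changes of Zfp709 and Ly6c2 were not called without the block.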

How the results depend on the processing

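The library code is given in the descriptions and the block rests on it. Without the replicate block the calls were 3 in place of 1348 for BN1 against control, 0 in place of 21 for BN1 against AFFN1 (992 at an unadjusted p under 0.05) and 373 in place of 733 for the change between days. Of the 93 called named genes, 3 kept their call without the block, 91 with relative log expression scaling, 92 with DESeq2, 86 without the low-count filter and 78 in the fit of 6 libraries, all in the same direction. For BN1 against control, scaling, DESeq2, no filter and the 6 libraries gave 1302, 1797, 1420 and 1140 calls. For BN1 against AFFN1, DESeq2 gave 360 and no filter 190. The code effect had 1772 calls with DESeq2, against 750. Over fits that left out 1 library or code, calls ranged from 28 (without control 3) to 1336 for BN1 against control, 0 to 124 for BN1 against AFFN1, 312 to 781 for the change between days and 270 to 881 for the code effect. The change of Ifi44 between days ranged from -9.93 to 1.65 over these fits and was positive without BN1 1 and without the 0716 libraries (1.12). The cause of these shifts was not tested. With 3 libraries per group at 17.8 to 18.4 times 1e6 counts, genes near the detection floor and changes under 2-fold are the least certain.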
